A study of Mus musculus with 12 samples.

Results

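The mRNAs described here are those of 9 genes of the Notch and Id systems: Notch1, Notch2, Rbpj, Hes1, Hes5, Id1, Id2, Id3 and Ccnd1. They were listed by name, with no threshold on their values but with earlier results of these data known, and were 9 of the 24340 genes in the table and 9 of the 18509 genes that were above 0 in at least 1 library. All 9 were above 0 in each of the 12 libraries. The libraries were made from whole retinas of 6 p16-3MR mice aged 12 to 16 weeks. Every mouse carried the 3MR transgene under the regulatory region of p16Ink4a, controls included; its thymidine kinase part turns ganciclovir (GCV) into a toxic product, so that GCV acts on cells that use the p16 promoter. In each mouse, intraocular pressure (IOP) was raised in a single eye and kept between 85 and 90 mm Hg over 60 min, with the fellow eye as the control. Mice 3, 4 and 6 received no GCV and gave the ctrl and IOP groups. The paper describes its control mice as sham-treated with PBS or vehicle. Mice 1, 2 and 5 received GCV at 25 mg/kg once a day and gave the ctrl-GCV and IOP-GCV groups. Each group had 3 retinas. Retinas were collected on day 3.

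Notch receptors on a cell are cut after they bind a ligand on a neighbouring cell, and the freed intracellular part joins the DNA-binding protein RBPJ to switch on Hes and Hey genes. The encoded Hes and Hey proteins are basic helix-loop-helix repressors that hold back neuronal differentiation. Id proteins lack a DNA-binding region and capture the E proteins that proneural factors need, and they are classical targets of BMP signalling through SMAD proteins. In the mature mouse retina several of these genes are known from Müller glia, the radial glia that span the tissue, and Ccnd1 encodes cyclin D1, the cyclin D form that retinal progenitors use most.

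The promoter of Hes5 is shown because Hes5 fell in the comparison described first and because it is the textbook target of RBPJ. Of the 9 genes, 6 had a promoter in the RefSeq table of GRCm38.p6 (250 bases before to 50 after the transcript start), and Rbpj had 2 such windows. The Hes5 window is chr4:154960673-154960972 on the plus strand, within the annotated gene span that opens upstream at 154960626, and its capitals mark matches to the RBPJ motif GTGGGAA on either strand:
Hes5: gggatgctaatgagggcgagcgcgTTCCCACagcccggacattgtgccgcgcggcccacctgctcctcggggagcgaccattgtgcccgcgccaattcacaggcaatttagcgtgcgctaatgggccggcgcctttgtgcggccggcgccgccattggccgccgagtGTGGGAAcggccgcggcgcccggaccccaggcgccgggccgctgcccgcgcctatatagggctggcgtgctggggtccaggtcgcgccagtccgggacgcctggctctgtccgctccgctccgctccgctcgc
The first match begins at position -226 from the start, where the motif reads on the minus strand, and the second at position -83 on the plus strand. Among all 32851 promoters of the table, 6.38% held GTGGGAA at least once and 0.256% held it 2 or more times. GGCGCC, the GC element to which SMAD proteins can bind, matched 4 times in the Hes5 window, at -123, -106, -69 and -54, and once in that of Id2, at -231; 11.9% of all promoters held it. The STAT motif TTCNNNGAA, held by 8.3% of all promoters, matched in no window of the 6 genes, and those of Notch1, Notch2, Rbpj and Id3 held none of the 3 motifs. These matches describe letters only.

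The values are FPKM, fragments scaled to transcript length and to the size of the library. The step size of low values gave an estimated 4000000 fragments for the IOP retina of mouse 6 and 6840000 to 9040000 for the other 11 libraries, and that shallowest library had 14844 genes above 0 against 16044 to 16593 in the others. Retinal ganglion cell markers were lower in the IOP-treated eye of 5 mice, by list medians of 0.63 to 1.84 on the log2 scale, while the median in mouse 4 was -0.05. Lens genes summed to 5611 FPKM in the ctrl-GCV retina of mouse 1 and to at most 91.4 in the other control retinas. Among IOP-treated retinas they summed to 63.1 FPKM in mouse 3 and to 2184 to 4195 FPKM in the others. The ctrl-GCV retina of mouse 1 also had the highest control values of Hes5, Id1, Id2 and Ccnd1. The part of lens tissue in the values was not tested. The tests were also run without the IOP retinas of mice 4 and 6, for the depth and ganglion cell values above. Calls of named genes that were then lost are given. Differences were tested with limma on log2(FPKM + 1), which understates the change of low genes, and a gene was called at a Benjamini-Hochberg adjusted p under 0.05 over all 18509 genes.

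Across both treatments, IOP elevation was accompanied by less Hes5 and more Id1, and by no called difference in the other 7 genes. Hes5 averaged 3.85 ± 1.41 FPKM in the 6 control retinas, against 1.50 ± 0.37 FPKM in the 6 IOP-treated ones (SD, n = 6 each), a ratio of means of 0.39. Id1 averaged 4.81 ± 0.94 FPKM at normal pressure and 7.80 ± 0.68 FPKM after IOP elevation (SD, n = 6 each), a ratio of 1.62. The 2 genes were 1 of 9 called higher and 1 of 9 called lower, in a comparison that called 12.2% of all genes, 6.76% higher and 5.44% lower. With only genes at 1 FPKM or more in at least 3 libraries, 2645 of 13411 genes and 3 of the 9 were called. The shares of all genes given here and below also count genes that this filter leaves out. Of the 9 genes 5 had an unadjusted p under 0.05, as 30.3% of all genes did. Because whole retinas were sequenced, fewer cells of a type and less RNA per cell cannot be told apart. With mouse as a block the 2 genes were still called, while the number of genes called fell from 2258 to 1351; it was 788 to 4499 when single libraries were left out, lowest without the ctrl and highest without the IOP retina of mouse 4.

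**Figure D1:**
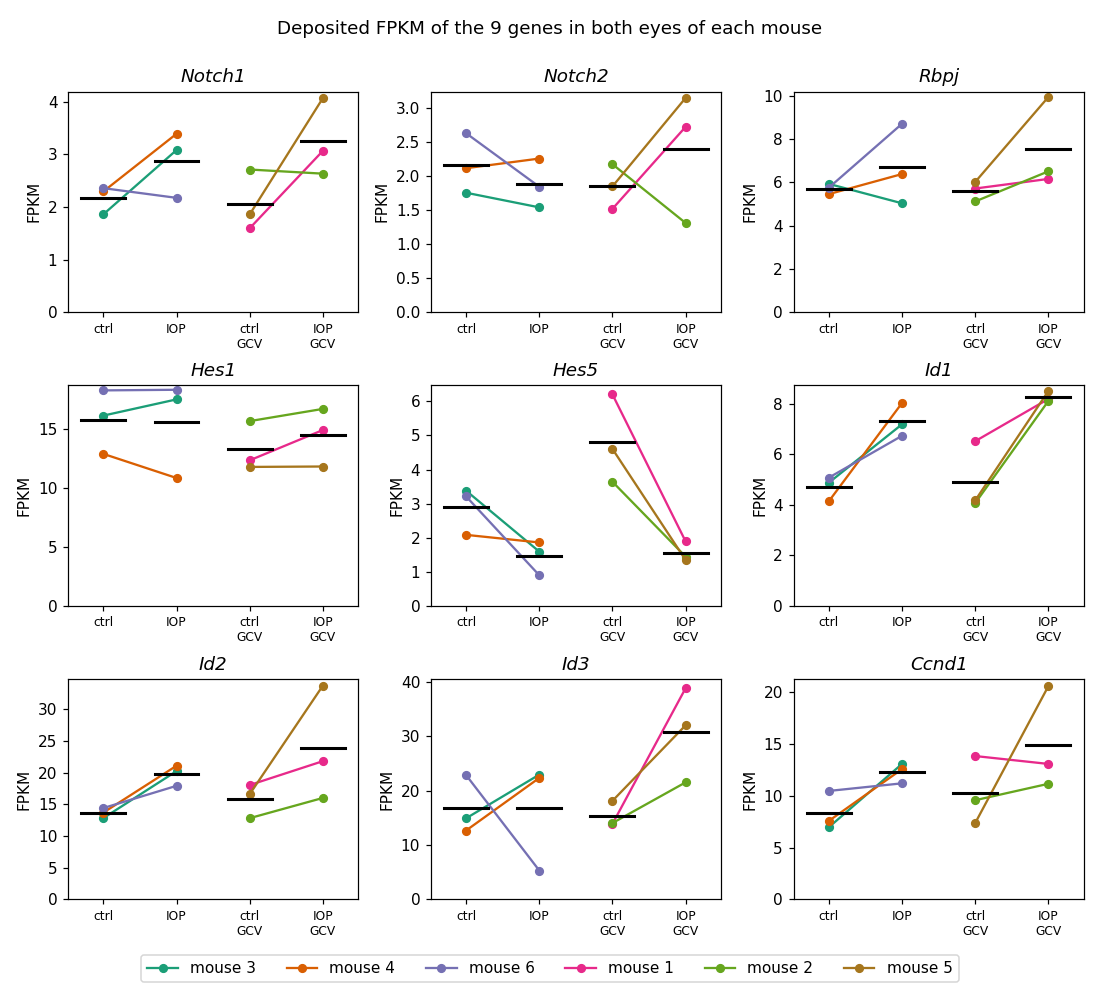
FPKM of the 9 genes (vertical axes, each from 0) in the control and IOP-treated retina of each mouse, joined by a line, without GCV on the left and with GCV on the right; black bars are means of 3 retinas. Hes5 lines go down and Id1 lines go up in all 6 mice, and the Id3 line of mouse 6 falls from 22.9 to 5.32 FPKM.

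Notch1 and Notch2 encode the receptors. Notch1 was at 1.86, 2.30 and 2.36 FPKM in the ctrl retinas of mice 3, 4 and 6 and at 3.08, 3.39 and 2.17 FPKM in their IOP retinas. With GCV it was at 1.59, 2.71 and 1.86 FPKM in the control retinas of mice 1, 2 and 5 and at 3.07, 2.63 and 4.07 FPKM in their IOP-treated retinas. The groups overlapped in both treatments; mice 6 and 2 had slightly less Notch1 in the treated eye and the other 4 had more. Over the 6 mice the log2 fold change was 0.38 (SE 0.14) with a limma adjusted p of 0.101, so Notch1 did not pass. Notch2 ranged from 1.52 to 2.63 FPKM at normal pressure and from 1.31 to 3.14 FPKM after its elevation and was higher in 3 mice and lower in 3. Its log2 fold change was 0.04 (95% confidence interval -0.32 to 0.40, limma adjusted p = 0.888), and its sign turned when single libraries were left out.

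Rbpj encodes the DNA-binding partner of the cut receptor. It lay between 5.11 and 6.01 FPKM in the 6 control retinas (coefficient of variation 5.85%, the lowest of the 9 genes) and between 5.03 and 9.94 FPKM in the IOP-treated retinas. The 3 IOP-GCV values of 6.15, 6.50 and 9.94 FPKM were all above the ctrl-GCV values of 5.71, 5.11 and 6.01 FPKM, whereas without GCV the groups overlapped. Over the 6 mice the log2 fold change was 0.26 (95% confidence interval -0.06 to 0.58) and the limma adjusted p was 0.264.

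Of the 2 Hes genes, both targets of Notch signalling, Hes5 fell and Hes1 did not pass the test. Hes5 was at 3.38, 2.08 and 3.21 FPKM in the ctrl retinas of mice 3, 4 and 6 and at 1.59, 1.86 and 0.895 FPKM in their IOP retinas. With GCV it was at 6.21, 3.64 and 4.60 FPKM in the control retinas of mice 1, 2 and 5 and at 1.89, 1.44 and 1.34 FPKM in their IOP-treated retinas. Groups of 6 did not overlap for Hes5 and Id1, 2 of the 9 genes, against 7.9% of all genes. All treated Hes5 values lay below all control values, as was so for 2.44% of all genes, and the highest treated value of 1.89 FPKM was close to the lowest control value of 2.08 FPKM. Within mice, the treated eye held 0.279 to 0.471 times the Hes5 of its control eye in 5 mice and 0.893 times in mouse 4. The difference was negative in 6 of 6 mice, as for 10.1% of all genes. Hes5, Id1 and Id2 kept 1 direction in 6 of 6 mice, 3 of the 9 genes against 20.8% of all genes, and 7 of the 9 did so in at least 5 mice, against 46.3%. Over the 6 mice the log2 fold change was -0.92 (SE 0.16) with a limma adjusted p of 0.00805.

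Hes1, the other canonical Notch target repressor of retinal glia and progenitors, was more abundant per transcript length than Hes5 and did not pass any test. It lay between 11.8 and 18.3 FPKM in control retinas and between 10.8 and 18.3 FPKM in IOP-treated retinas, and the 2 eyes of mice 5 and 6 differed by 0.0040 and 0.0039 on the log2 scale. Over the 6 mice its log2 fold change was 0.04 (95% confidence interval -0.30 to 0.37, limma adjusted p = 0.886). Its sign turned when single libraries were left out. The difference between the Hes5 and Hes1 changes was not tested, but in 5 mice the log2 eye difference was -1.32 to -0.76 for Hes5 and 0.0039 to 0.25 for Hes1. In mouse 4 it was -0.11 for Hes5 and -0.23 for Hes1.

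**Figure D2:**
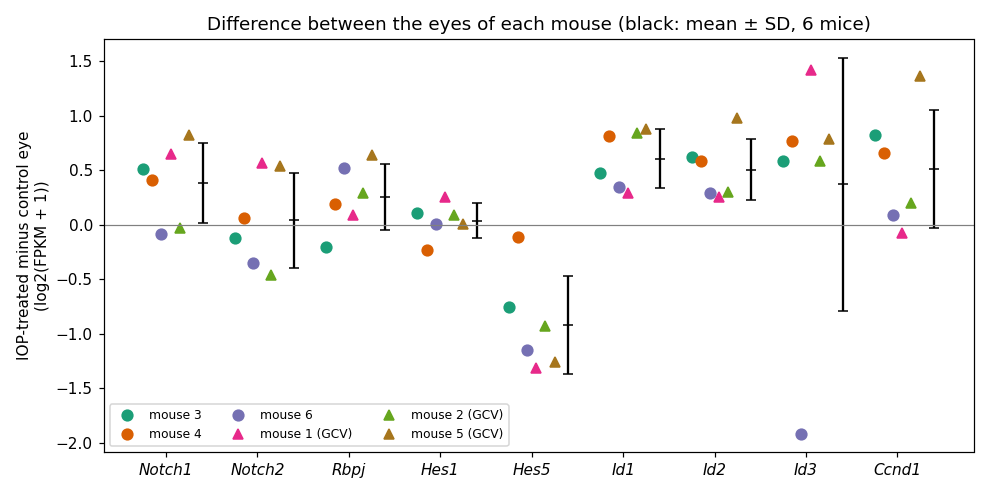
Difference between the IOP-treated and the control eye of each mouse on log2(FPKM + 1) (vertical axis) for the 9 genes; circles are mice without GCV, triangles mice with GCV, and black bars the mean ± SD of 6 mice. Hes5 lies below 0 and Id1 and Id2 above 0 in every mouse, and Id3 of mouse 6, at -1.92, lies apart from its other 5 values.

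Of the 3 Id genes among the 9, Id1 rose. Its FPKM was 4.88, 4.14 and 5.08 in the ctrl retinas of mice 3, 4 and 6 and 7.19, 8.04 and 6.74 in their IOP retinas. In mice 1, 2 and 5 it was 6.52, 4.07 and 4.17 in the ctrl-GCV and 8.19, 8.11 and 8.51 in the IOP-GCV retinas. Every treated value was above every control value, as for 5.47% of all genes, and the lowest treated value of 6.74 FPKM was close to the 6.52 FPKM of the mouse 1 control. The ratio of treated to control eye ran from 1.26 in mouse 1 to 2.04 in mouse 5. Over the 6 mice the log2 fold change was 0.61 (SE 0.12) with a limma adjusted p of 0.0122.

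Id2 was higher in the treated eye of 6 of 6 mice, as for 10.7% of all genes, but missed the threshold. It was at 12.8, 13.7 and 14.4 FPKM in ctrl and 20.2, 21.1 and 17.9 FPKM in IOP retinas of mice 3, 4 and 6, without overlap. With GCV it was at 18.0, 12.8 and 16.6 FPKM in control and 21.8, 16.0 and 33.7 FPKM in IOP-treated retinas of mice 1, 2 and 5, where the groups overlapped. The log2 fold change over the 6 mice was 0.51 (SE 0.16) with a limma adjusted p of 0.0596. It was called when genes under 1 FPKM were left out, at a limma adjusted p of 0.0431, and without the IOP-GCV retina of mouse 2, at 0.0175.

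Id3 was the most variable of the 9 genes between eye pairs, with an SD of 1.16 on the log2 scale. It was at 14.9, 12.7 and 22.9 FPKM in ctrl and 23.0, 22.4 and 5.32 FPKM in IOP retinas of mice 3, 4 and 6. In mice 1, 2 and 5 it was at 13.9, 14.1 and 18.1 FPKM in ctrl-GCV and 38.9, 21.5 and 32.0 FPKM in IOP-GCV retinas, without overlap. Mouse 6 alone had less Id3 in the treated eye, and the treated eye of the other 5 mice had 1.53 to 2.80 times that of the control eye. The log2 fold change over the 6 mice was 0.37 (SE 0.33, limma adjusted p = 0.487), and without the IOP retina of mouse 6 it was 0.69 with a limma adjusted p of 0.0462. That retina was the shallowest library, with an estimated 23.6 Id3 fragments against 116.3 to 351.5 in the other 11 libraries; the part of depth in its low value was not tested.

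Ccnd1 was at 6.98, 7.59 and 10.5 FPKM in the ctrl and 13.1, 12.6 and 11.2 FPKM in the IOP retinas of mice 3, 4 and 6, without overlap. In mice 1, 2 and 5 it was at 13.8, 9.58 and 7.38 FPKM with normal pressure and 13.1, 11.2 and 20.6 FPKM after IOP elevation, which overlapped. The treated eye had more Ccnd1 in 5 of 6 mice, from 1.07 times in mouse 6 to 2.79 times in mouse 5, and 0.945 times in mouse 1. Over the 6 mice the log2 fold change was 0.51 (SE 0.18) with a limma adjusted p of 0.0851. The groups of 3 did not overlap for 4 of the 9 genes without GCV (Hes5, Id1, Id2 and Ccnd1) and for 4 with GCV (Hes5, Id1, Rbpj and Id3), against 20.5% and 29.8% of all genes.

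Tested within each treatment, 3 retinas against 3, the genes gave 0 of 9 calls without GCV and 1 of 9 with GCV, where 1.65% of all genes (1.42% higher, 0.232% lower) and 1.8% (1.65% higher, 0.157% lower) were called. Without GCV, Hes5 had a log2 fold change of -0.67 (SE 0.23, limma adjusted p = 0.190) and Id1 one of 0.55 (SE 0.17, limma adjusted p = 0.152), and 3 of the 9 genes had an unadjusted p under 0.05, as 18.9% of all genes did. With GCV, Hes5 fell by 1.17 on the log2 scale (SE 0.23, limma adjusted p = 0.0325) and Id1 was at 0.67 (SE 0.17, limma adjusted p = 0.0737). With GCV 4 of the 9 genes had an unadjusted p under 0.05, against 19.2% of all genes. The Hes5 call with GCV was lost with mouse as a block (limma adjusted p = 0.0977) and without any 1 of the 6 ctrl-GCV and IOP-GCV retinas (limma adjusted p from 0.0532 to 0.132).

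The change with IOP was then compared between treatments, to ask whether GCV altered it. The interaction called 0 of the 9 genes and 0 of all genes, with an unadjusted p under 0.05 in 0 of the 9 and in 358 (1.93%) of all genes. The limma adjusted p of the 9 genes ran from 0.997 to 1. For Hes5 the effect with GCV minus that without was -0.50 (95% confidence interval -1.22 to 0.22), and for Id1 it was 0.12 (95% confidence interval -0.40 to 0.65), intervals that do not show the effects to be alike. For Id3 it was 1.12 (95% confidence interval -0.33 to 2.56), which was 0.48 without the IOP retina of mouse 6 alone and 0.46 without those of mice 4 and 6. Without the IOP retinas of mice 4 and 6, which leaves 1 IOP retina that is assumed to vary like the other groups, the interaction called 245 genes and 0 of the 9.

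**Figure D3:**
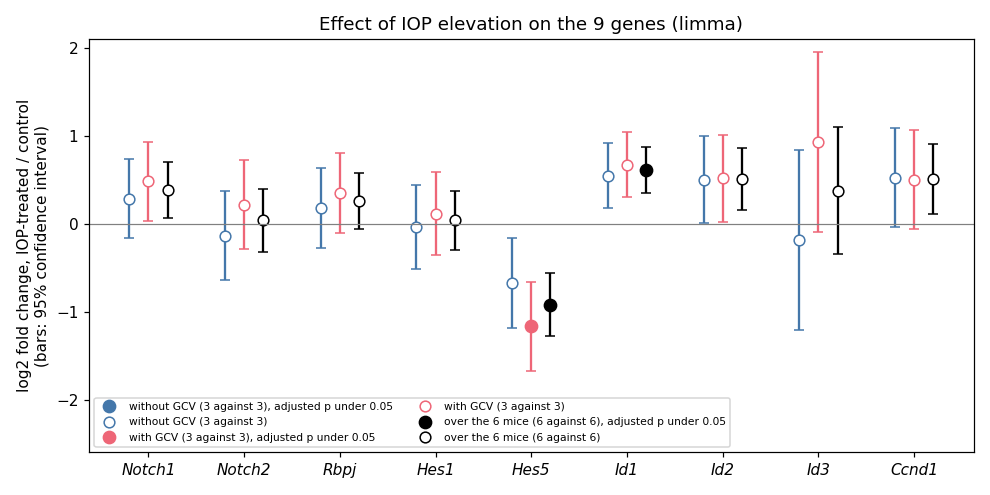
log2 fold change of IOP-treated over control retinas (vertical axis) for the 9 genes without GCV (blue), with GCV (red) and over the 6 mice (black); bars are 95% confidence intervals and filled points passed a limma adjusted p under 0.05. Filled points are Hes5 with GCV (-1.17), Hes5 over the 6 mice (-0.92) and Id1 over the 6 mice (0.61).

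The effect of GCV itself was tested between different mice. In IOP-treated retinas it called 0 of the 9 genes and 0 of all genes by limma, with an unadjusted p under 0.05 for 1 of the 9 genes and for 774 (4.18%) of all genes; that gene, Id3, averaged 16.9 ± 10.0 FPKM in IOP and 30.8 ± 8.73 FPKM in IOP-GCV retinas (SD, n = 3 each). Its log2 difference of 1.02 was 0.39 without the IOP retina of mouse 6 and 0.37 without those of mice 4 and 6. In control retinas it again called 0 of 9 and 0 of all genes, with an unadjusted p under 0.05 for 1 of the 9 and for 295 (1.59%) of all genes. That gene was Hes5, at 2.89 ± 0.70 FPKM in ctrl and 4.82 ± 1.30 FPKM in ctrl-GCV retinas (SD, n = 3 each), a log2 difference of 0.57 with a limma adjusted p of 1. In IOP-treated retinas Hes5 was at 1.45 ± 0.50 FPKM in the mice without GCV and 1.56 ± 0.29 FPKM in the GCV-treated mice (SD, n = 3 each). Without the IOP retinas of mice 4 and 6, GCV in IOP-treated retinas called 374 genes and 0 of the 9. The 2 comparisons of IOP and these 2 of GCV share the same 12 retinas.

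Calls in the other genes of the Notch pathway are given beside the 12.2% of all genes called over the 6 mice. Of the 5 ligand genes 0 were called over the 6 mice. The most abundant, Jag1, was at 19.6 ± 1.87 FPKM at normal pressure and 17.7 ± 2.64 FPKM after IOP elevation (SD, n = 6 each). Notch3 and Notch4, the other 2 receptor genes, stayed below 1 FPKM in every group mean and 0 of 2 were called. Of 17 genes that process or modulate the receptors 0 were called, and the median log2 fold change was -0.02, against 0.01 over all genes. Their single log2 fold changes ran from -0.88 to 0.66. Dtx3 was the most abundant of them, at 107 ± 8.75 FPKM at normal pressure and 117 ± 44.0 FPKM after IOP elevation (SD, n = 6 each). Of 7 cofactors of RBPJ 0 were called, with a median of -0.10. Snw1, which encodes a coactivator in the RBPJ complex, was at 84.4 ± 8.11 FPKM at normal pressure and 103 ± 37.3 FPKM after IOP elevation (SD, n = 6 each). Without the IOP retina of mouse 4, where 4499 of all genes were called, the calls were 2 higher and 1 lower of the 17 processing genes and 1 higher and 1 lower of the 7 cofactors, while those of the ligands and of Notch3 and Notch4 remained 0. The filter of 1 FPKM in 3 libraries, and leaving out the IOP retinas of mice 4 and 6, each gave 1 higher and 1 lower of the 17 and 1 lower of the 7. Of the 17, 1 was called higher without the IOP retina of mouse 6 and without the IOP-GCV retina of mouse 2, and of the 7, 1 was called lower with no variance trend.

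Of 8 further genes taken as Notch targets, 7 Hes and Hey genes and Nrarp, 1 was called higher and 0 lower. Hey2, a repressor of the same helix-loop-helix class as Hes5, rose from 6.92 ± 0.54 FPKM in control to 11.5 ± 1.88 FPKM in IOP-treated retinas (SD, n = 6 each), in the opposite direction to Hes5. The log2 fold change was 0.64 (SE 0.10, limma adjusted p = 0.00545) and the treated eye was higher in 6 of 6 mice. Hey2 was called with mouse as a block and in 12 of 12 fits that each left out 1 library. The median of these 8 genes was 0.01, and a further gene was called, lower, without the IOP retina of mouse 4 and without those of mice 4 and 6.

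Id4 and the partners and inducers of the Id proteins are read against the same 12.2% of all genes. Of Id4 and 3 E protein genes 0 of 4 were called, with 1 higher and 1 lower without the IOP retina of mouse 4 and 1 lower without those of mice 4 and 6. Id4, a further Id gene, was at 19.3 ± 3.03 FPKM at normal pressure and 11.7 ± 6.01 FPKM after IOP elevation (SD, n = 6 each). The treated eye had less Id4 in 5 mice and more in 1. Its log2 fold change of -0.79 (limma adjusted p = 0.0874) was opposite in sign to that of Id1. Tcf12, the most abundant E protein gene, was at 17.7 ± 1.24 FPKM at normal pressure and 20.7 ± 2.33 FPKM after IOP elevation (SD, n = 6 each). Of 18 BMP and SMAD genes 1 was called higher and 1 lower, with a median of 0.12, and fits without 1 library gave 0 to 1 higher and 0 to 2 lower. Smad5, a signal carrier of BMP receptors, went from 9.69 ± 0.82 to 12.7 ± 1.84 FPKM (SD, n = 6 each), a log2 fold change of 0.35 with a limma adjusted p of 0.0401. Smad9, of the same class, went from 2.59 ± 0.61 to 1.07 ± 0.90 FPKM (SD, n = 6 each), a log2 fold change of -0.88 with a limma adjusted p of 0.0471. Neither held with mouse as a block, where the limma adjusted p was 0.0699 for Smad5 and 0.0840 for Smad9. Smad9 was not called with a pseudocount of 0.1, and Smad5 was not called without the IOP retinas of mice 4 and 6 (limma adjusted p = 0.0524). When single libraries were removed, each kept its call in 2 of 12 fits, those without the IOP retina of mouse 4 for both, without the IOP-GCV retina of mouse 2 for Smad5 and without that of mouse 1 for Smad9.

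Beside Ccnd1, 11 genes of the cyclin D, CDK and RB group had 1 call higher and 0 lower, with a median of 0.30, beside the 12.2% of all genes called. There were 2 higher without the IOP retina of mouse 4, without that of mouse 6 and without both. Cdkn1a, which encodes the cell cycle inhibitor p21, rose from 1.67 ± 0.30 FPKM in control to 8.57 ± 4.83 FPKM in IOP-treated retinas (SD, n = 6 each). The log2 fold change was 1.71 (SE 0.29, limma adjusted p = 0.00604), with the treated eye higher in 6 of 6 mice, and it was called with mouse as a block and in 12 of 12 fits without 1 library.

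Of 22 genes used in studies of Müller glia reprogramming and retinal progenitors, 3 were called higher and 1 lower, beside 6.76% and 5.44% of all genes. Their median was -0.01, and fits without 1 library gave 1 to 4 higher and 0 to 2 lower. Stat3, the signal carrier of gp130 cytokines, rose from 11.9 ± 1.66 to 43.0 ± 6.26 FPKM (SD, n = 6 each), a log2 fold change of 1.77 with a limma adjusted p of 0.000106, and was called in each treatment alone and with the block. Nes, which encodes the intermediate filament nestin, rose from 0.624 ± 0.204 to 1.89 ± 1.16 FPKM (SD, n = 6 each), with a limma adjusted p of 0.0197 that became 0.0505 with the block. Without 1 library, Nes lost its call in 4 of 12 fits (those without the ctrl retinas of mice 3 and 4 and the ctrl-GCV retinas of mice 2 and 5). The other 2 calls were Sox11, at 0.263 ± 0.083 FPKM at normal pressure and 1.01 ± 0.57 FPKM after IOP elevation (limma adjusted p = 0.0434), and Pax6, at 105 ± 11.1 FPKM and 67.1 ± 19.4 FPKM (limma adjusted p = 0.0361; SD, n = 6 each). Each of these 2 kept its call in 4 of 12 fits without 1 library, and Sox11 was not called without the IOP retinas of mice 4 and 6 (limma adjusted p = 0.0750).

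**Figure D4:**
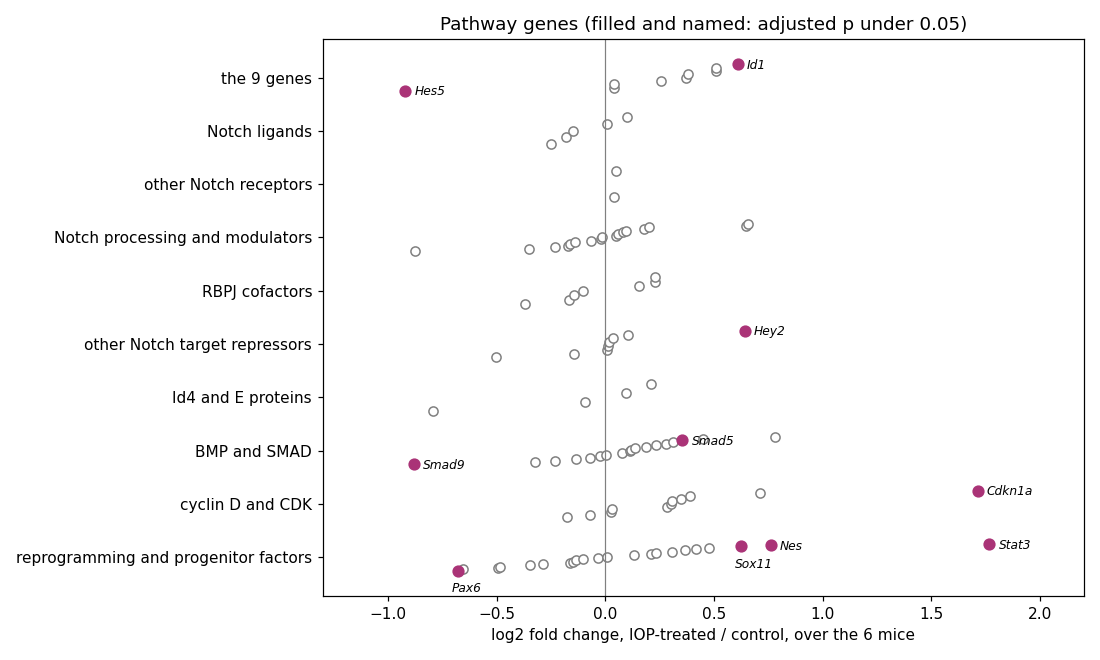
log2 fold change over the 6 mice (horizontal axis) for each gene of the Notch, Id, BMP, cell cycle and reprogramming lists (1 row per list, 1 point per gene); filled, named points passed a limma adjusted p under 0.05. Filled points are Hes5 and Id1 of the 9 genes, 0 genes in the ligand, receptor, processing, RBPJ cofactor and E protein rows, and 8 genes in the other 4 rows.

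Marker genes of several retinal cell types moved with IOP elevation. Calls in all marker lists, here and below, are read beside the 12.2% of all genes called, 6.76% higher and 5.44% lower. Of 10 Müller glia markers 1 was called higher and 2 lower over the 6 mice, with a median log2 fold change of -0.40. The block gave 0 higher and 1 lower, and fits without 1 library gave 0 to 1 higher and 0 to 5 lower, with 0 calls without the ctrl retina of mouse 4 and 5 lower without its IOP retina. Of the 10 markers 2 had a positive and 8 a negative log2 fold change. Their summed level was 2477 to 2960 FPKM in control and 2559 to 3818 FPKM in IOP-treated retinas, and none was at 0 in any library. The most abundant markers weigh most in this sum, among them Glul and Apoe, which moved in opposite directions. Glul, the glutamine synthetase gene of these glia, fell from 952 ± 125 to 417 ± 150 FPKM (SD, n = 6 each) with a limma adjusted p of 0.0174, lost at 0.0551 without the ctrl retina of mouse 4. Apoe went from 615 ± 129 to 1227 ± 380 FPKM (SD, n = 6 each) with a limma adjusted p of 0.0303, which became 0.0580 with the block, and kept its call in 4 of 12 fits without 1 library. The third call was Rlbp1, the gene of the retinaldehyde-binding protein of Müller glia and pigment epithelium, at 175 ± 24.0 FPKM at normal pressure and 113 ± 25.5 FPKM after IOP elevation (SD, n = 6 each), with a limma adjusted p of 0.0345 and 0.0547 with the block, and it kept its call in 5 of 12 fits without 1 library. Without the IOP retinas of mice 4 and 6 the limma adjusted p of Rlbp1 was 0.0634.

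All 8 reactive glia genes were called higher, with a median of 2.72 and summed levels of 144 to 284 FPKM in control and 767 to 2040 FPKM in IOP-treated retinas. Edn2, an endothelin gene, went from 2.79 ± 1.22 to 52.1 ± 18.4 FPKM, and Socs3, a feedback inhibitor of STAT3 signalling, from 2.05 ± 0.69 to 21.6 ± 12.1 FPKM (SD, n = 6 each). Of 10 genes of dividing cells 7 were called higher and 0 lower, and 5 to 8 higher without 1 library, with sums of 41.9 to 50.2 FPKM against 54.1 to 86.7 FPKM. Top2a and Mki67 averaged 0.103 and 0.0529 FPKM in control and 1.18 and 0.994 FPKM in IOP-treated retinas. Of 10 microglia and leukocyte genes 9 were called higher and 0 lower, and 7 to 9 higher without 1 library, with sums of 51.9 to 115 FPKM against 332 to 2728 FPKM; C1qa averaged 16.8 and 102 FPKM and C1qb 21.1 and 156 FPKM in control and IOP-treated retinas.

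All 10 retinal ganglion cell genes were called lower, with a median of -1.32 and sums of 895 to 1826 FPKM in control and 217 to 975 FPKM in IOP-treated retinas, and 4 of 10 were called with the block and 1 to 10 of 10 when single libraries were left out. Pou4f3 averaged 3.39 and 0.704 FPKM and Nefh 48.3 and 22.0 FPKM in control and IOP-treated retinas. Of 10 endothelial genes 1, Emcn, was called higher, with sums of 32.1 to 50.2 FPKM against 22.7 to 67.1 FPKM. Emcn kept its call in 1 of 12 fits without 1 library, that without the IOP retina of mouse 4, and was called neither with a pseudocount of 0.1 nor without the IOP retinas of mice 4 and 6 (limma adjusted p = 0.0729). Of 7 rod genes, led by Gnat1, the rod transducin alpha subunit, 0 were called, with sums of 20545 to 29171 FPKM against 17590.0 to 29165 FPKM. Of 9 lens genes 4 were called higher, Bfsp1 and Bfsp2 among them, and 0 to 8 were called when single libraries were left out. Their sums were 5.62 to 5611 FPKM (median 36.5) in control and 63.1 to 4195 FPKM (median 2771) in IOP-treated retinas. Of 8 pigment epithelium and ciliary body genes, led by Ttr, 0 were called, with sums of 20.2 to 297 FPKM against 56.3 to 315 FPKM, and 2 were called lower without the ctrl-GCV retina of mouse 5. Without the IOP retinas of mice 4 and 6, 0 lens genes and all 10 ganglion cell genes were called. Markers at 0 in at least 1 library were Mki67, Ccnb1, Birc5 and Aurkb of dividing cells, Pou4f3, the endothelial Cdh5, Tie1 and Tek, Crybb1 and Lim2 of lens, and Best1. The part of any of these cell types in the changes of Hes5 and Id1 was not tested.

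**Figure D5:**
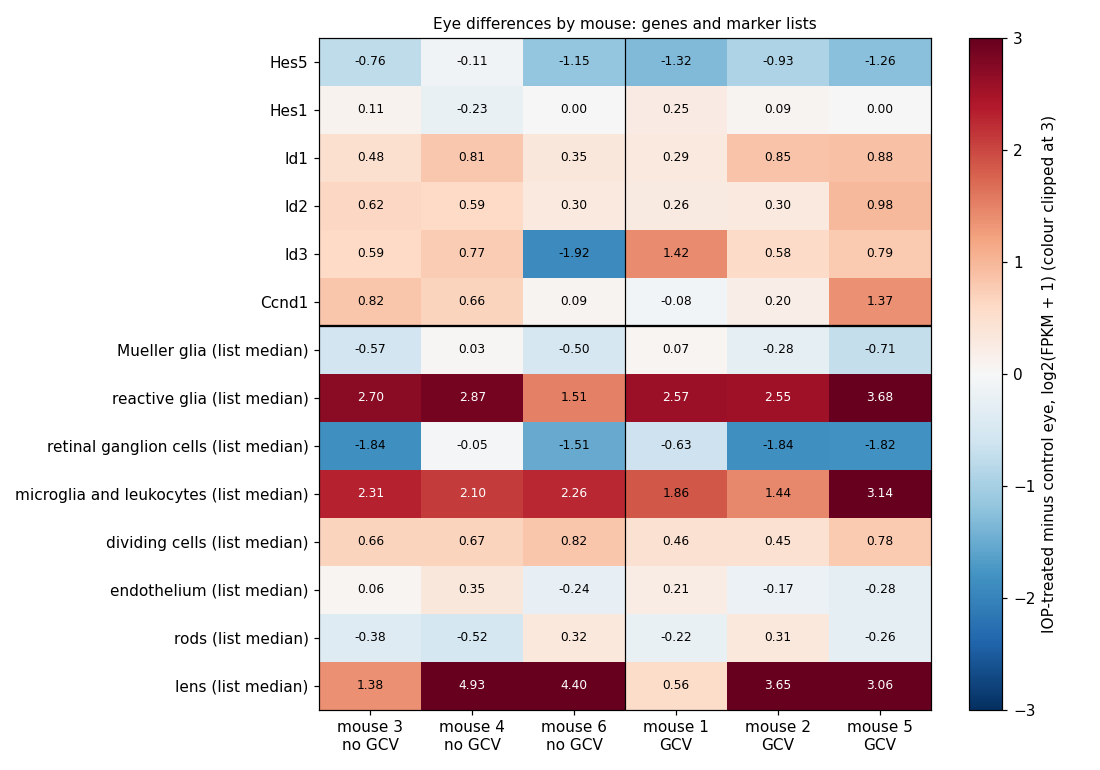
Difference between the IOP-treated and the control eye on log2(FPKM + 1) by mouse (columns) for 6 of the 9 genes and for the medians of 8 marker lists (rows); red is higher and blue lower in the treated eye, and the colour scale stops at 3. Mouse 4 has the smallest Hes5 difference (-0.11) and the smallest ganglion cell median (-0.05), while its Id1 (0.81) and reactive glia (2.87) values are among the higher ones.

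Set side by side by mouse, the Hes5 difference was -0.76, -0.11 and -1.15 in mice 3, 4 and 6 and -1.32, -0.93 and -1.26 in mice 1, 2 and 5. The Müller glia list median was -0.57, 0.03 and -0.50 in mice 3, 4 and 6 and 0.07, -0.28 and -0.71 in mice 1, 2 and 5. As a ratio of FPKM, treated over control eye, Hes5 was at 0.47, 0.89 and 0.28 in mice 3, 4 and 6 and at 0.30, 0.40 and 0.29 in mice 1, 2 and 5, so that the order of the mice depended on the scale. The ganglion cell list median was -1.84, -0.05 and -1.51 in mice 3, 4 and 6 and -0.63, -1.84 and -1.82 in mice 1, 2 and 5. The Id1 difference was 0.48, 0.81 and 0.35 in mice 3, 4 and 6 and 0.29, 0.85 and 0.88 in mice 1, 2 and 5. Without the IOP retinas of mice 4 and 6, Hes5 had a log2 fold change of -0.87 (limma adjusted p = 0.0135) and Id1 one of 0.60 (limma adjusted p = 0.0198) over the remaining retinas, and both were still called.

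The depth behind these values was modest for the shorter and rarer transcripts. Hes5 had an estimated 3.9 fragments in the IOP retina of mouse 6 and 10.9 to 51.7 in the other libraries, and Id1 had 26.7 to 73.5. Both genes were called over the 6 mice in 12 of 12 fits that each left out 1 library, with a limma adjusted p of 0.00419 to 0.0291 for Hes5 and 0.00538 to 0.0386 for Id1.

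As a description, the genes whose log2(FPKM + 1) followed each of the 9 most closely over the 12 libraries were listed among the 12910 genes that averaged 1 FPKM or more. The 12 libraries share eyes of 6 mice and the same IOP contrast. Hes5 was followed by Idi1 (Pearson r of 0.93) and Adra2c (0.92), and Id1 by Efemp2 (0.95) and Snx25 (0.93). Id2 was followed by Ggta1 (0.96) and Fes (0.95), Id3 by Ctdp1 (0.94) and Zfp740 (0.93), and Ccnd1 by Itgb5 (0.94) and Cd24a (0.94). Notch1 was followed by Arhgdia (0.94) and Reep4 (0.93), Notch2 by Cbl (0.92) and Itga9 (0.90), Rbpj by Cbwd1 (0.94) and Jak2 (0.93), and Hes1 by Ccdc97 (0.91) and Zfp385a (0.90). Among the 9 genes themselves the highest coefficients were those of Id2 with Ccnd1 (0.87), Id1 with Ccnd1 (0.81) and Id1 with Id2 (0.77), and the most negative was that of Notch1 with Hes5 (-0.65).

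In control retinas the 9 genes ordered by mean FPKM as Id3 (16.1), Id2 (14.7), Hes1 (14.5), Ccnd1 (9.31), Rbpj (5.66), Id1 (4.81), Hes5 (3.85), Notch1 (2.11) and Notch2 (2.003). The ranges of neighbours in this order overlapped at every step except from Ccnd1 to Rbpj, where the lowest Ccnd1 value was 6.98 FPKM and the highest Rbpj value 6.01 FPKM. In IOP-treated retinas the order was Id3 (23.9), Id2 (21.8), Hes1 (15.0), Ccnd1 (13.6), Id1 (7.80), Rbpj (7.12), Notch1 (3.07), Notch2 (2.13) and Hes5 (1.50). The ranges of neighbours overlapped here except from Ccnd1 to Id1 and from Rbpj to Notch1. Hes5 was seventh in the control order and last in this one, where its range of 0.895 to 1.89 FPKM overlapped that of Notch2, 1.31 to 3.14 FPKM.

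The genes lie on mouse chromosomes 2 (Notch1, 26457902 to 26503822, and Id1, 152736251 to 152737410), 3 (Notch2, 98013538 to 98150367), 4 (Id3, 136143822 to 136145392, and Hes5, 154960626 to 154962372), 5 (Rbpj, 53555779 to 53657445), 7 (Ccnd1, 144929931 to 144939831), 12 (Id2, 25093799 to 25096092) and 16 (Hes1, 30065357 to 30067796) of GRCm38.p6.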

How the data were processed

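Total RNA of 12 retinas was sequenced as stranded mRNA libraries. The authors deposited 1 table of all libraries; its values were taken as FPKM, a unit inferred from their range and step sizes because the table does not state it. Per the labels the build was mm10 and the tools TopHat2, Bowtie2, Cufflinks and Cuffdiff; the study's methods name exon counting over RefSeq genes with HOMER, and which step made the deposited FPKM is not given in the sources used here. Of 24340 rows, 95.1% matched a RefSeq symbol and 4 rows shared a name.

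Groups and mouse numbers came from the sample titles. Differences were fitted with limma 3.58.1 (R 4.3.3, variance trend, 1 mean per group, all 12 libraries) on log2(FPKM + 1) for 18509 genes above 0 in at least 1 library, with Benjamini-Hochberg adjustment and a threshold of 0.05. The comparison over the 6 mice is the mean of the IOP effects without and with GCV. Labels give 2 retinas of the same animal the same number, so mouse pairs the retinas; deviations from the group means correlated within mice at -0.12 to 0.39 over 12910 genes. A fit with mouse as a block, another pseudocount (0.1), a filter (1 FPKM in 3 libraries), only the groups compared, median-ratio scaling, no variance trend and each library left out in turn were alternatives; leaving out the IOP retinas of mice 4 and 6 together was chosen after seeing the data. Depth was estimated from the value of 1 fragment, with 73.9% to 80.1% of low values within 0.1 of a whole number. It gives counting precision only. Promoters, gene positions and symbols came from RefSeq (GRCm38.p6).

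The 9 genes, the pathway and marker lists and the motifs were chosen with earlier results of these data known. All 9 genes were named. Of each other list, genes that averaged 1 FPKM or more in any group were considered. Up to 3 called genes (markers: 2) with the smallest adjusted p over the 6 mice were named. Where none was called, the most abundant one was named. Id4, Sox11 and Rlbp1 were named after their values were seen. Some genes of the lists are not reported here and were left out of the lists' counts, medians and sums. Each retina came from 1 eye; GCV effects compare different mice. The scripts were tested on simulated data.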

Additional observations from a re-analysis of the deposited data

Results flagged for a closer look

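In 1 of the 9 genes an eye pair stood apart from the others. For Id3, the IOP-treated minus control difference of mouse 6 was -1.92 on the log2(FPKM + 1) scale, while the other 5 mice ran from 0.58 to 1.42, and the gap to the nearest of them was 0.749 of the whole range, above Dixon's 95% critical value for 6 values. Chance alone passes that critical value in about 1 of 20 groups of values, and all 9 genes were screened at both ends. The IOP-treated retina of mouse 6 was also the shallowest library, and the part of depth in this value was not tested.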

How the results depend on the processing

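Hes5 and Id1 were called over the 6 mice in 18 of 18 alternatives, with log2 fold changes of -1.26 to -0.83 and 0.56 to 0.70. With mouse as a replicate block the number of genes called was 75 without GCV, 144 with GCV and 1351 over the 6 mice, and 0 of the 9 with GCV; the block changed no other call of the 9 genes in the IOP comparisons and could not be applied to GCV, which differs between mice. The number of the 9 called with GCV was 2 with the filter of 1 FPKM, where 457 of 13411 genes were called, and 0 with only the groups compared. A pseudocount of 0.1 gave 464 genes without GCV, 535 with GCV and 1 for GCV in control retinas, and only the groups compared gave 185, 7 and 4. Without the IOP retinas of mice 4 and 6 the counts were 1619 without GCV, 4890 over the 6 mice, 374 for GCV in IOP-treated retinas and 245 in the interaction test, with 0 of the 9 genes called in the last 2; signs then turned for Rbpj (-0.15), Hes1 (0.16) and Id3 (0.47) without GCV, Notch2 (-0.046) over the 6 mice, Hes1 (-0.041) and Id2 (-0.025) in the interaction and Hes5 (-0.024) for GCV in IOP-treated retinas. Median-ratio scaling gave -0.0017 for Id2 in the interaction. The cause was not tested.

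Leaving out each library in turn gave 20 to 2432 genes called without GCV (lowest without ctrl mouse 3, highest without IOP mouse 4), 62 to 697 with GCV (without ctrl-GCV mouse 1 and IOP-GCV mouse 2), 788 to 4499 over the 6 mice (without ctrl mouse 4 and IOP mouse 4), 0 to 2 for the interaction and 0 to 4 for GCV in either eye. Of the 9 genes, 0 to 1 were called with GCV and 2 to 3 over the 6 mice; besides Hes5 and Id1 these were Id2 or Id3. Id1 with GCV was called without ctrl-GCV mouse 1 (limma adjusted p = 0.0496) and with the filter (0.0472). Signs turned within -0.17 to 0.19 for Hes1, -0.51 to 0.45 for Id3 and -0.0079 to 0.34 for Rbpj without GCV, within -0.026 to 0.15 for Hes1 and -0.043 to 0.17 for Notch2 over the 6 mice, within -0.27 to 0.19 for Ccnd1, -0.072 to 0.28 for Hes1, -0.26 to 0.25 for Id2 and -0.022 to 0.35 for Rbpj in the interaction, and within -0.10 to 0.20 for Hes5 and -0.26 to 0.14 for Id3 in the GCV effects. Depth was unknown except as estimated, and 3 retinas per group limit the tests within a treatment.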
